A study of Rattus norvegicus with 16 samples.

Results

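The subunits of the oxidative phosphorylation machinery were taken as every probe set whose annotation gives a single gene symbol that begins with Nduf, Uqcr, Atp5 or Cox4 to Cox8, or that is Sdha, Sdhb, Sdhc or Sdhd. This rule found 100 probe sets of 54 genes among the 8740 probe sets that are not array controls, 7006 of which carry 1 symbol. By complex, 49 probe sets (27 genes) belong to complex I, 1 (Sdha) to complex II, 6 (3 genes) to complex III, 27 (13 genes) to complex IV and 17 (10 genes) to complex V, the ATP synthase. The names also bring in a few genes that are not plain subunits: the assembly factor Ndufaf3, the pseudogene Cox6c-ps1, the supercomplex protein Cox7a2l, the ATP synthase inhibitor Atp5if1, and Ndufa4, named as a complex I protein but now assigned to complex IV, with its relative Ndufa4l2. Each gene is kept under the complex of its name. A further 6 probe sets with several symbols were left out.

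Total RNA of rat tissue had been hybridised to 16 arrays, 12 of retina and 4 of pineal gland. Retina was measured at 4 conditions, ZT6, ZT12, CT6 and CT12, with 3 arrays per condition, and the pineal gland at the same conditions with 1 array per condition. ZT (Zeitgeber time) is by convention counted from lights on in a light-dark cycle and CT (circadian time) by the internal clock without a cycle. Lighting, strain, sex and age were not given in the sources used here. Nothing says that arrays of a condition are separate animals, and p-values cover only the spread between arrays, which may be technical. The label of the pineal ZT12 array gives 6.0 hours in its description and hour 12 in its title, which was followed. The labels of the 4 retina arrays numbered 3 and of the pineal ZT12 array name brain and retina. The other labels name eye and retina.

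Oxidative phosphorylation takes place in the inner mitochondrial membrane. Complexes I and II pass electrons from NADH and succinate to ubiquinone, complex III passes them to cytochrome c, complex IV passes them to oxygen, and complex V makes ATP from the proton gradient that complexes I, III and IV build. All subunits measured here are nuclear genes. In the retina the inner segments of photoreceptors are packed with mitochondria, and the pineal gland, which makes melatonin at night, is built largely of pinealocytes, cells related to photoreceptors. Some complex IV subunits have tissue forms, with Cox6a2 and Cox8b in heart and skeletal muscle beside the widespread Cox6a1 and Cox8a.

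The promoters of these genes held some of the motifs searched more often than promoters at large. RefSeq promoters (rat GRCr8, 250 bases before to 50 after each annotated start) were found for 46 of the 54 genes. The letters AAGATGGC, a motif bound by YY1, stood on either strand in 11 of 46 (23.9%), against 1062 of 33469 promoters of all genes (3.17%) and 163 of 4192 promoters of genes on the array (3.89%). By complex they stood in 8 of 25 genes of complex I, 1 of 9 of complex IV and 2 of 9 of complex V, and in neither complex II nor complex III. The longer run, AAGATGGC followed by GG, stood in 7 of 46 (15.2%), against 0.98% of all promoters and 1.55% of those on the array. These 7 are shown because they share this run, as 30-base windows on the gene's strand with AAGATGGC in capitals:
Ndufs4 (chr2:47794892-47794921, minus strand): ttgcccacaggAAGATGGCggcggtctcaa
Ndufs7 (chr7:10110476-10110505, minus strand): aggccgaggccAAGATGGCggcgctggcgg
Ndufa9 (chr4:161374142-161374171, minus strand): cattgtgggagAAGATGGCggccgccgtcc
Ndufa6 (chr7:115750284-115750313, minus strand): gcttccttagcAAGATGGCggccgcggcca
Ndufb8 (chr1:253362897-253362926, minus strand): cggagaaggtgAAGATGGCggcgtcccggg
Ndufs6 (chr1:31797412-31797441, plus strand): gggtcgtcggcAAGATGGCggcggcgctga
Atp5pf (chr11:37375194-37375223, minus strand): taagtgtaggaAAGATGGCggagtcttagc

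In 6 of these 7 windows the motif begins 5 to 24 bases after the annotated start. In Atp5pf it begins at base -111, before the start. The motif contains the letters ATG, and whether a match is a translation start was not tested. Other motifs were searched on both strands. CCGGAAG, bound by ETS factors such as NRF2/GABP, stood in 9 of 46 promoters (19.6%), against 8.75% of all and 11.9% of those on the array. GCGCATGC followed by GC, bound by NRF1, stood in 1 (2.17%, Atp5po), against 0.852% and 1.19%. TATAAA stood in 2 (4.35%, Cox8b and Ndufs6), against 14.2% and 11.3%. TCAAGGTCA, bound by oestrogen-related receptors, stood in 0, against 0.433% and 0.143%. A match describes the letters in this window and is not a measured site.

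All levels below are log2(intensity + 16) after quantile normalization, and all differences are log2 differences on that scale. Levels of different probe sets are not compared. Of the 100 members, 89 passed a filter that kept the upper 60% of probe sets by mean level, and these were tested with limma together with all 5244 probe sets kept. A member is said to pass at a Benjamini-Hochberg adjusted p under 0.05. The pineal arrays carried the tissue's markers, with 11 pineal genes summing to intensities of 144123 to 161149 against 9976 to 38902 on the retina arrays. Rod markers were high on 11 retina arrays and low on the first CT12 array, where their sum was 33509, below the 92863 to 123050 of the pineal arrays. The 3'/5' ratio of control probe sets, which grows as the far end of transcripts is lost from the labelled RNA, separated the tissues. For actin it was 5.14 to 8.72 on pineal arrays and 1.08 to 1.46 on retina arrays. For GAPDH it was 13.7 to 17.9 and 1.07 to 1.65.

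**Figure D1:**
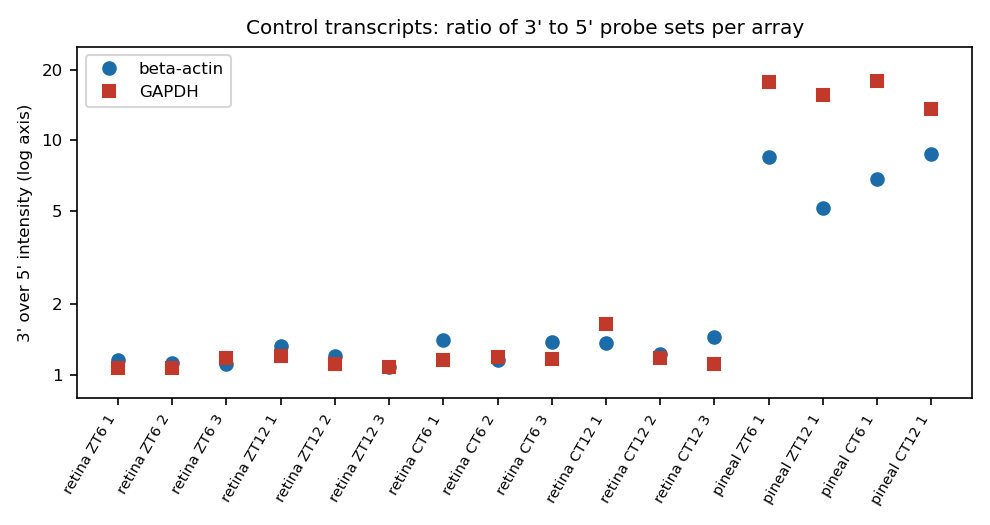
Ratio of the 3' to the 5' control probe set of actin and of GAPDH on each of the 16 arrays, on a log axis. The 4 pineal arrays lie at 5.14 or more for both genes, and all 12 retina arrays lie at 1.65 or less.

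Between pineal gland and retina, the members split between both directions. Of the 89 tested, 34 were higher in the pineal gland, 38 were lower and 17 did not pass. Over all probe sets tested 75.8% passed, 39.4% higher and 36.4% lower, so the share of members called was near the background. Complex III and complex V members were more often higher (4 of 6 and 8 of 16 tested) than lower (2 and 5). Complex I was nearly balanced, with 15 higher and 16 lower of 43. Complex IV members were mostly lower, with 15 of 23 lower and 6 higher. The median difference over all 100 members was -0.10, against 0.22 over all probe sets, and by complex it was -0.15 in I, 0.87 in II, 0.52 in III, -0.99 in IV and 0.33 in V. With a common median scaling in place of quantiles, 42 members were higher and 29 lower and the median was 0.23. The share and the median of all probe sets under that scaling are not given here. The sign of the members' median thus changed with the scaling, and no direction can be given for the members as a whole. In bulk tissue fewer cells of a type and less RNA per cell cannot be told apart.

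Probe sets of the same gene often differed in direction. Of the 26 genes with several tested probe sets, 12 (46.2%) had probe sets that passed in opposite directions, against 211 of 909 genes on the array (23.2%). The filter level was 8.82 over the 16 arrays, and the files used here give no detection call, so the size of a difference is not well defined where a tissue's mean lies under it. This was so in the pineal gland for 6 of the 38 lower members (671 of 1911 lower probe sets in all) and in the retina for 3 of the 34 higher ones. With only probe sets at or above this level in both tissues, an alternative chosen after seeing the data, 9 of 19 member genes (47.4%) passed in opposite directions, against 140 of 650 (21.5%), and the median range of a gene's differences was 1.82 and 1.26. Atp5po, the stalk subunit that fixes the F1 head to the membrane part, is an example. Its probe set D13127_g_at read 16.84, 16.82, 16.87 and 16.76 on the pineal arrays of ZT6, ZT12, CT6 and CT12, and 14.61 to 15.21 with a median of 14.90 on the retina arrays. Its probe set D13127_at read 8.37, 9.12, 8.37 and 7.87 on the same pineal arrays and 14.06 to 14.74 on the retina arrays. All pineal arrays thus lay above all retina arrays on the first (1.89 ± 0.11 SE) and below all of them on the second, where the pineal mean was under the filter level. In 13 pairs of this kind, with the suffixes _g_at and _at on 1 sequence name, the _g_at member stood above its partner in 11, by a median of 1.16. Over all such pairs on the array it did so in 603 of 906 (66.6%), by a median of 0.59. The 3'/5' ratio moved with the tissue in every array, so RNA quality and tissue cannot be told apart for any tissue difference given here.

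**Figure D2:**
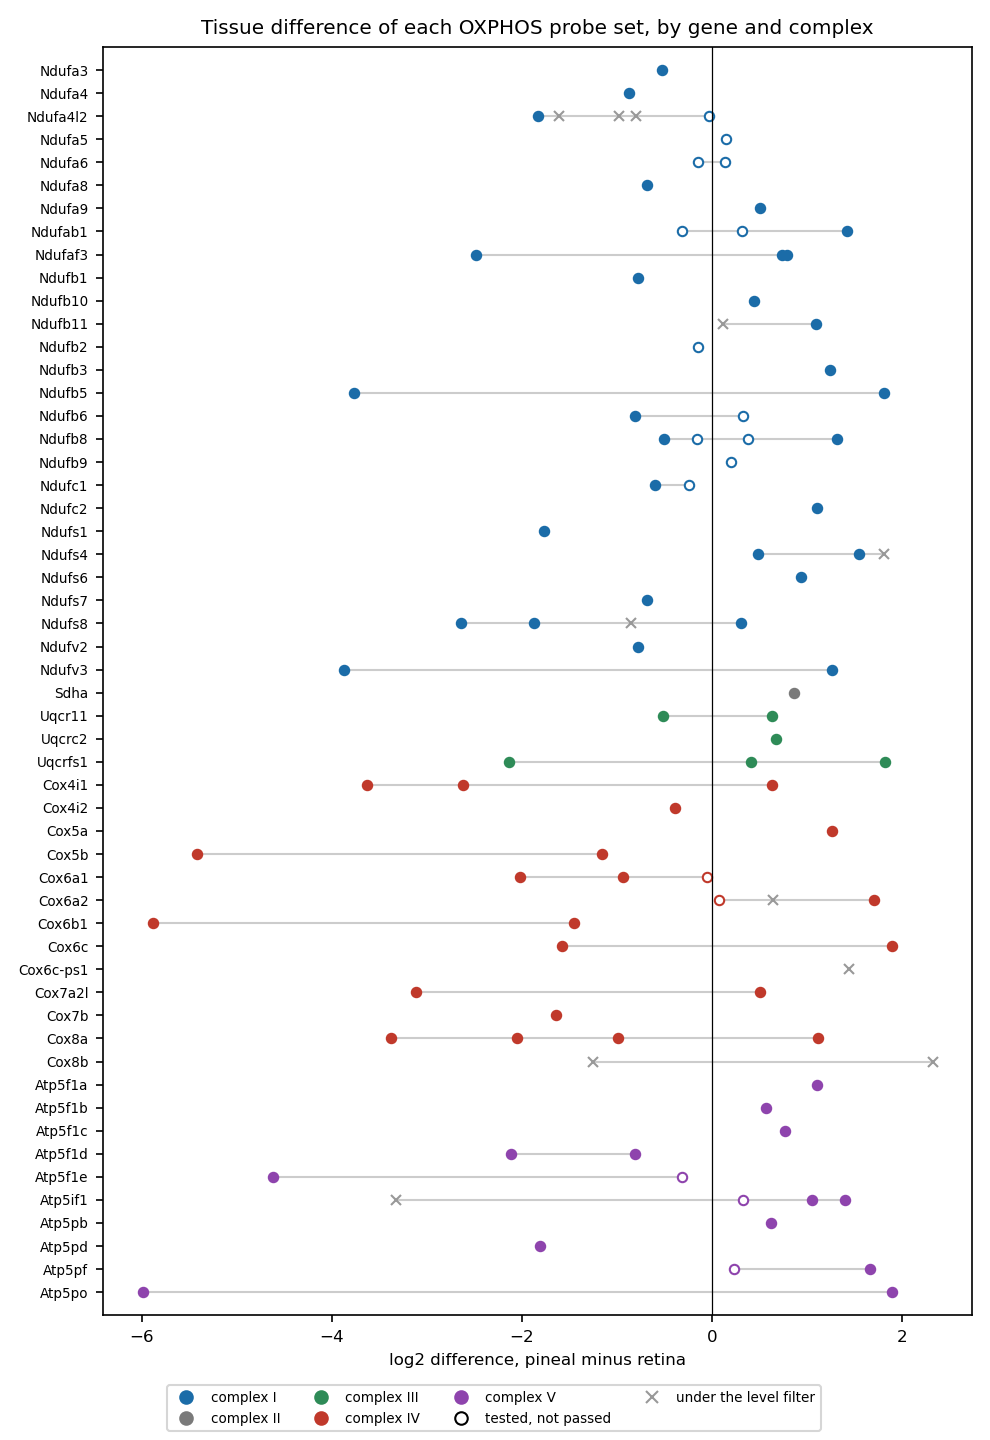
Pineal minus retina difference (log2) of each of the 100 member probe sets, by gene and complex. Filled points passed, open points were tested and did not pass, crosses were under the level filter, and a grey line joins the probe sets of a gene; the lines of 12 genes join points that passed on both sides of 0.

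The plot of probe sets by gene shows these lines crossing 0 in every complex with more than 1 gene. Below, each gene is given by the probe set with its highest mean level, with 4 pineal and 12 retina arrays and adjusted p-values from limma, and other probe sets are named where they differ. Counted this way, 25 of 52 genes were higher in the pineal gland, 17 were lower and 10 did not pass. The median difference by gene was 0.27, with 0.20 in complex I, 0.41 in III, -0.05 in IV and 0.60 in V, so for all members and for complex I its sign was the reverse of that by probe set. Complex I had 12 higher and 9 lower genes of 27, complex IV had 4 higher and 5 lower of 11, and complex V had 6 higher and 2 lower of 10.

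The core subunits of complex I carry the flavin and iron-sulphur centres. Of the 4 tested, 3 were lower and 1 was higher, too few to set against the 36.4% lower and 39.4% higher of all probe sets tested. Ndufs1, the largest core subunit, read 8.20 on the ZT6, 9.27 on the ZT12, 9.21 on the CT6 and 8.93 on the CT12 pineal array, all below the retina arrays at 10.06 to 11.03 (median 10.76). Its difference was -1.77 ± 0.18 (adjusted p = 5.81e-07). Ndufs7 was lower by a smaller amount (-0.69 ± 0.11), a call lost with a common median scaling. Ndufv2 was also lower by a smaller amount (-0.78 ± 0.16). Ndufs8 was higher by 0.30 ± 0.11, while its probe sets AA685112_at and rc_AA851379_at were lower (-2.64 and -1.87).

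The accessory subunits of complex I surround that core and are needed to assemble or steady it. They were higher in 10 of 20 genes, lower in 5 and did not pass in 5, against 39.4% higher and 36.4% lower of all probe sets tested. Ndufb5 read 14.32, 14.11, 14.36 and 14.14 on the pineal arrays of ZT6, ZT12, CT6 and CT12 and 12.08 to 13.66 (median 12.28) on the retina arrays, a difference of 1.81 ± 0.19 (adjusted p = 1.07e-06). Its other probe set read 7.18 to 7.64 on pineal and 10.45 to 13.37 on retina arrays, the opposite direction, with the pineal arrays under the filter level. Ndufs4, in whose absence complex I is unstable, was higher by 1.54 ± 0.18 (2.92-fold), and the pineal arrays (13.57 to 13.70) again lay above all retina arrays (11.45 to 13.05). Ndufab1, the mitochondrial acyl carrier protein, was higher by 1.42 ± 0.14 (2.68-fold). Ndufv3 was higher by 1.26 ± 0.19 on its brighter probe set and lower on the other, where the pineal arrays (5.55 to 7.68) were under the filter level. Ndufa8 (-0.68 ± 0.17) and Ndufc1 (-0.60 ± 0.14) were lower with no overlap between tissues. With a common median scaling neither of them nor Ndufs7 passed, and Ndufc1 stood at 0.12. Among the 7 genes with the longer run there was no common direction. Ndufs4 stood at 1.54, Ndufs6 at 0.94, Ndufa9 at 0.50, Ndufa6 at 0.14 (not passed) and Ndufs7 at -0.69. Atp5pf stood at 0.23 and 1.67 on its probe sets, and probe sets of Ndufb8 passed in opposite directions.

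Sdha, the flavoprotein subunit of succinate dehydrogenase and the only member in complex II, read 14.28, 14.46, 14.55 and 14.36 on the pineal arrays of ZT6, ZT12, CT6 and CT12 and 12.63 to 13.93 (median 13.68) on the retina arrays. All pineal arrays lay above all retina arrays, and the difference was 0.87 ± 0.17 (1.82-fold, adjusted p = 0.000272). In complex III, the core protein Uqcrc2 was higher by 0.68 ± 0.13 with no overlap. The other genes of complex III disagreed between probe sets. Uqcrfs1, the Rieske iron-sulphur protein, gave -2.14, 0.41 and 1.82, all passed, and the small subunit Uqcr11 gave -0.51 and 0.63.

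Complex IV had the lowest median of the complexes. Cox6b1, which lies on the intermembrane side, read 13.41, 12.74, 13.46 and 12.84 on the pineal arrays of ZT6, ZT12, CT6 and CT12 and 14.27 to 14.80 (median 14.62) on the retina arrays. This is -1.45 ± 0.13 (2.73-fold lower, adjusted p = 1.05e-07). Its other probe set was also lower, with pineal levels of 6.14 to 7.10 under the filter level. Cox5b, which binds zinc on the matrix side, was lower by 1.16 ± 0.14 on the brighter of its probe sets and also lower on the other, where the pineal mean of 7.26 was under the filter level. Cox7b, measured by a single probe set, was lower by 1.64 ± 0.15 (3.12-fold). Cox5a was higher by 1.27 ± 0.32 (2.41-fold). Cox8a, Cox4i1 and Cox6c gave calls in both directions. For Cox8a these were 1.12 on the brightest probe set and -3.37, -2.05 and -0.99 on the others. For Cox4i1 they were 0.63, -2.62 and -3.63, and for Cox6c -1.57 and 1.89.

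Of the isoform pairs, Cox4i2, the lung and hypoxia form of Cox4, was lower by 0.39 ± 0.16 (adjusted p = 0.0412), the reverse of the 0.63 of Cox4i1, but with a common median scaling the difference was 0.05 and the call was lost on leaving out most single arrays. Cox6a1 differed by -0.05 ± 0.10 on its brightest probe set (adjusted p = 0.662) and was lower on its other probe sets (-2.02 and -0.94), while a common median scaling put the brightest at 0.58. Cox6a2, the muscle form, gave 0.07 ± 0.25 on its brightest probe set (adjusted p = 0.802) and 1.71 ± 0.45 on another. Both probe sets of the muscle form Cox8b were under the filter. Ndufa4 was lower by 0.87 ± 0.21, with pineal levels of 13.71 to 13.98 inside the retina range of 13.65 to 15.18, and did not pass with a common median scaling. Cox7a2l, which helps join complexes into supercomplexes, gave 0.50 ± 0.18 on its brightest probe set, a call lost without the pineal ZT6 array, and -3.11 ± 0.23 on the other. Ndufa4l2 gave -0.03 ± 0.17 on its brightest probe set (adjusted p = 0.871), which passed as lower on the values as deposited, and was lower on another, where the pineal mean of 8.78 was under the filter level. Cox6a2, Cox8b and Ndufa4l2 are described again with the retina arrays.

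In complex V, the F1 head, where ATP is made, had 3 subunits higher, 1 lower and 1 not passed of 5. All probe sets tested gave 39.4% higher and 36.4% lower. Atp5f1a and Atp5f1b went the same way. Atp5f1a read 14.60, 14.82, 14.89 and 14.78 on the pineal arrays of ZT6, ZT12, CT6 and CT12. The retina arrays read 12.82 to 13.96 (median 13.71), and the difference was 1.11 ± 0.15 (2.16-fold, adjusted p = 8.78e-06). Atp5f1b was higher by 0.57 ± 0.16 (1.49-fold). Atp5f1c, the rotating shaft, was higher by 0.77 ± 0.11. Atp5f1d, at the foot of that shaft, was lower on both probe sets (-2.12 ± 0.17 and -0.81). The peripheral stalk had 2 of 4 higher (Atp5po and, at 0.62 ± 0.12, Atp5pb) and 1 lower (Atp5pd, -1.81 ± 0.15, 3.51-fold lower). Atp5if1, which blocks the enzyme when it would run backwards, was higher by 1.40 ± 0.18 (2.64-fold) on its brightest probe set. On rc_AA891873_f_at the pineal levels lay inside the retina range. Its probe set D13122_i_at, under the filter, went the opposite way, at 4.94 to 5.63 on pineal and 7.53 to 9.25 on retina arrays.

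Each condition has its own pineal array. The median difference of the 100 members was 0.09 within ZT6, -0.13 within ZT12, -0.05 within CT6 and -0.40 within CT12. In 60 of 100 members the pineal and retina arrays did not overlap, against 37.4% of all probe sets. The pineal arrays were the higher in 28 of them (21.0% of all probe sets) and the lower in 32 (16.4%). These shares are not at like levels, since 89 of 100 members passed the level filter against 5244 of 8740 probe sets in all. Among those tested, 72 of 89 members passed in the tissue comparison, against 75.8% of all.

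Other mitochondrial lists were counted by the brightest probe set of each gene. Over all probe sets tested, 39.4% were higher in the pineal gland and 36.4% lower. The lists are short and are given under quantile normalization only, and the limit of RNA quality holds for them too. In the citrate cycle and pyruvate dehydrogenase list, 8 of 11 tested genes were higher in the pineal gland and 2 lower. Dlst was higher by 3.04 and Dlat by 2.46, and citrate synthase, Cs, was lower by 2.33 ± 0.28. Of the assembly, import and chaperone genes, 7 of 10 were higher and 1 lower, led by the chaperonin pair Hspe1 (2.88) and Hspd1 (2.42). Electron carriers and ATP export gave 3 higher and 2 lower of 8, with Etfa, an electron carrier of fatty acid oxidation, at 2.57 and the outer membrane pore Vdac1 at -4.07. Of 5 antioxidant genes 3 were higher and 1 lower, and all 3 uncoupling genes tested were higher. The only regulator tested, Esrra, was higher by 1.17 ± 0.35.

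In the retina, the 4 groups were compared in 7 ways: hour 12 against hour 6 under ZT and under CT, CT against ZT at each hour, both averages, and the difference between the time effects. These comparisons share arrays and are not independent. Across all 7 a single member passed once, Ndufa4l2 in CT12 minus ZT12, where 0.610% of all probe sets passed. In the other 6 comparisons limma called 0 members. The background was 0.286% for ZT12 minus ZT6, 0.0381% for CT12 minus CT6, 0.00% for CT6 minus ZT6, 0.210% for the average hour effect, 0.00% for the average of CT minus ZT and 0.0191% for the difference between time effects. No gene of the other mitochondrial lists passed in a retina comparison. Array weights or leaving out the third CT12 array gave higher counts of members in some comparisons, as given in the closing section. The 95% interval lay within 1 log2 unit of 0 for 78 of 89 members in ZT12 minus ZT6 and 76 in CT6 minus ZT6. It did so for 69 in CT12 minus CT6 and 67 in CT12 minus ZT12. The hour average gave 84, the CT minus ZT average 81 and the difference between time effects 47.

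**Figure D3:**
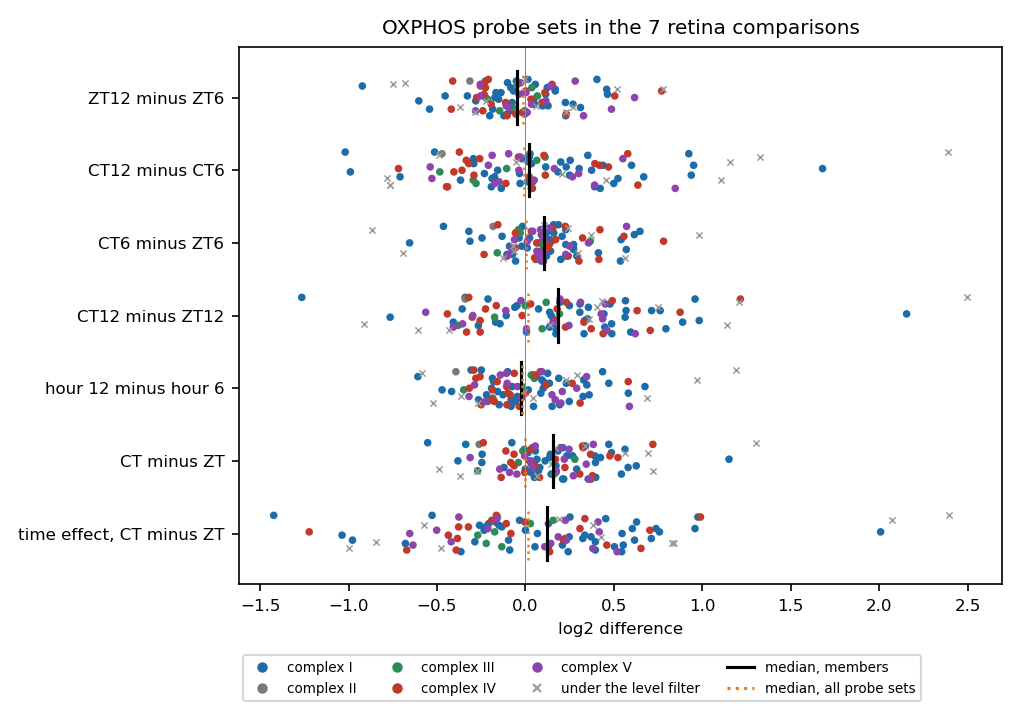
Differences (log2) of the members in the 7 retina comparisons, 1 point a probe set, with the median of the members as a black line and the median of all probe sets as a dotted orange line. The member median is 0.15 for CT minus ZT over both hours and between -0.05 and 0.19 in the others.

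By hour, no excess of members over the share of all probe sets in a direction reached 3 percentage points at an unadjusted p under 0.05. In ZT12 minus ZT6, 1 member was higher and 4 were lower of 89, against 3.66% and 4.96% of all probe sets. In CT12 minus CT6, 10 were higher and 8 lower, against 11.6% and 15.9%, and without the first CT12 array 4 and 2, against 6.86% and 12.2%. In the hour average 5 were higher and 8 lower, against 7.30% and 10.3%. In the difference of time effects 9 were higher and 5 lower, against 7.82% and 8.22%.

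In CT against ZT more members were higher than lower, though none passed in the average. In CT6 minus ZT6, 8 were higher and 1 lower at an unadjusted p under 0.05, against 1.93% and 3.15% of all probe sets. In CT12 minus ZT12, 22 were higher and 3 lower, against 11.3% and 14.9%, and without the first CT12 array 20 and 2, against 7.48% and 11.5%. In the average over both hours, 19.1% of the tested members were higher and 1.12% lower, against 4.67% and 7.17%. Over all 100 members of that average, 72 had a positive difference against 49.8% of all probe sets, and the median was 0.15. By complex, 39 of 49 members of I, 3 of 6 of III, 18 of 27 of IV and 12 of 17 of V were positive, and Sdha was not (-0.26). Without the first CT12 array, 77 of 100 were positive with a median of 0.11, and 18 were higher and 0 lower at an unadjusted p under 0.05, against 4.67% and 8.22%. No member passed, the smallest adjusted p from limma being 0.296. Markers of other cells moved in the same average. Medians were -0.69 for 7 rod genes (0 positive), -0.61 for 7 ganglion cell genes (1 positive) and -0.48 for 12 synaptic genes (0 positive). They were 0.84 for 13 lens genes (12 positive), 0.78 for 5 blood genes (5 positive) and 1.28 for 2 pigment epithelium genes (2 positive). In CT6 minus ZT6 alone the medians were 0.09 for rod, 0.01 for ganglion cell and 0.06 for synaptic genes. There they were 0.13 for lens, 0.26 for blood and 0.70 for pigment epithelium genes, and the members' median was 0.10 with 70 of 100 positive. The part of these markers in the members' differences was not tested.

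Ndufb10, an accessory subunit of complex I, had the smallest p in that average. It read 11.69, 12.07 and 12.02 at ZT6, 12.14, 12.09 and 11.99 at ZT12, 12.55, 12.67 and 12.50 at CT6 and 12.86, 12.42 and 12.37 at CT12. Every CT array lay above every ZT array, and the difference was 0.56 ± 0.12, which did not pass (adjusted p = 0.296). Atp5pd of the ATP synthase stalk read 13.36, 13.04 and 13.23 at ZT6, 13.53, 13.58 and 13.35 at ZT12, 13.74, 13.88 and 13.73 at CT6 and 13.77, 13.54 and 13.74 at CT12. Its CT and ZT arrays overlapped slightly, at 0.38 ± 0.10 (adjusted p = 0.296). On the negative side, Uqcr11 stood at -0.27 ± 0.12 and Atp5f1b at -0.31 ± 0.17, neither passed. The other probe set of Uqcr11 went the opposite way, at 0.28 ± 0.10.

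For the hour under ZT, the median of the members was -0.05 and 42 of 100 were positive, against 48.7% of all probe sets. Ndufs6, a zinc-binding subunit of complex I, read 13.90, 14.22 and 14.02 at ZT6, 13.56, 13.48 and 13.48 at ZT12, 13.97, 13.92 and 13.94 at CT6 and 13.92, 13.88 and 14.07 at CT12. The ZT12 arrays lay below all 9 others, while CT6 and CT12 overlapped. The ZT12 minus ZT6 difference was -0.54 ± 0.13 (adjusted p = 0.150) and the difference between the time effects was 0.55 ± 0.18 (adjusted p = 0.234), neither passed. Ndufs8, a core subunit, was also lowest on the 3 ZT12 arrays, at 12.78 to 12.87 against 13.35 to 13.51 at ZT6 (-0.60 ± 0.14, adjusted p = 0.136). Its probe set AA685112_at stood at -0.92 ± 0.20 (adjusted p = 0.113) and rc_AA851379_at at 0.46 ± 0.26, the opposite direction. Atp5f1d went the other way, at 13.87 to 13.99 on ZT12 and 12.95 to 13.63 on ZT6 arrays (0.62 ± 0.18, adjusted p = 0.291), and Ndufs4 stood at 0.46 ± 0.23.

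For CT12 minus CT6 the members' median was 0.02, with 52 of 100 positive against 49.4% of all probe sets, and without the first CT12 array it was -0.06 with 38 positive. Among values that did not pass were Atp5f1e at 0.55 ± 0.22, Atp5f1a at -0.53 ± 0.20 and Uqcrfs1 at -0.48 ± 0.16, with -0.28 and 0.06 on its other probe sets. In CT6 minus ZT6, Ndufb10 stood at 0.65 ± 0.17 and Atp5pd at 0.57 ± 0.14, and Ndufb1 and Ndufb6, both accessory subunits of complex I, stood at -0.65 ± 0.32 and -0.46 ± 0.29. The other probe set of Ndufb6 stood at 0.41 ± 0.21. In CT12 minus ZT12, Ndufa5 stood at 0.79 ± 0.24 and Ndufs6 at 0.45 ± 0.13, and Atp5f1b and Uqcr11 at -0.56 ± 0.25 and -0.38 ± 0.17, while the other probe set of Uqcr11 stood at 0.19 ± 0.14. Ndufa4 gave -0.98 ± 0.46 for the difference between the time effects. None of these passed.

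The CT12 group holds an array that stands apart. On the first CT12 array the median deviation from each probe set's median over the 12 retina arrays was -3.69 for the rod marker list, -3.11 for the ganglion cell list and -2.38 for the synaptic list. It was 2.31 for endothelial and 2.23 for lens markers. The members as a whole did not follow the neuronal lists: their median deviation on this array was 0.18. It was 0.27 for complex I, -1.01 for Sdha, -0.06 for complex III, 0.01 for complex IV and 0.23 for complex V. The members spread both ways, with 40 of 100 above and 23 below all 11 other retina arrays, against 30.6% and 26.1% of all probe sets. Its GAPDH 3'/5' ratio was 1.65, against 1.07 to 1.21 on the other retina arrays. Its actin ratio was 1.37, inside the 1.08 to 1.46 of the others. The part of cell makeup and of RNA quality in these values was not tested.

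**Figure D4:**
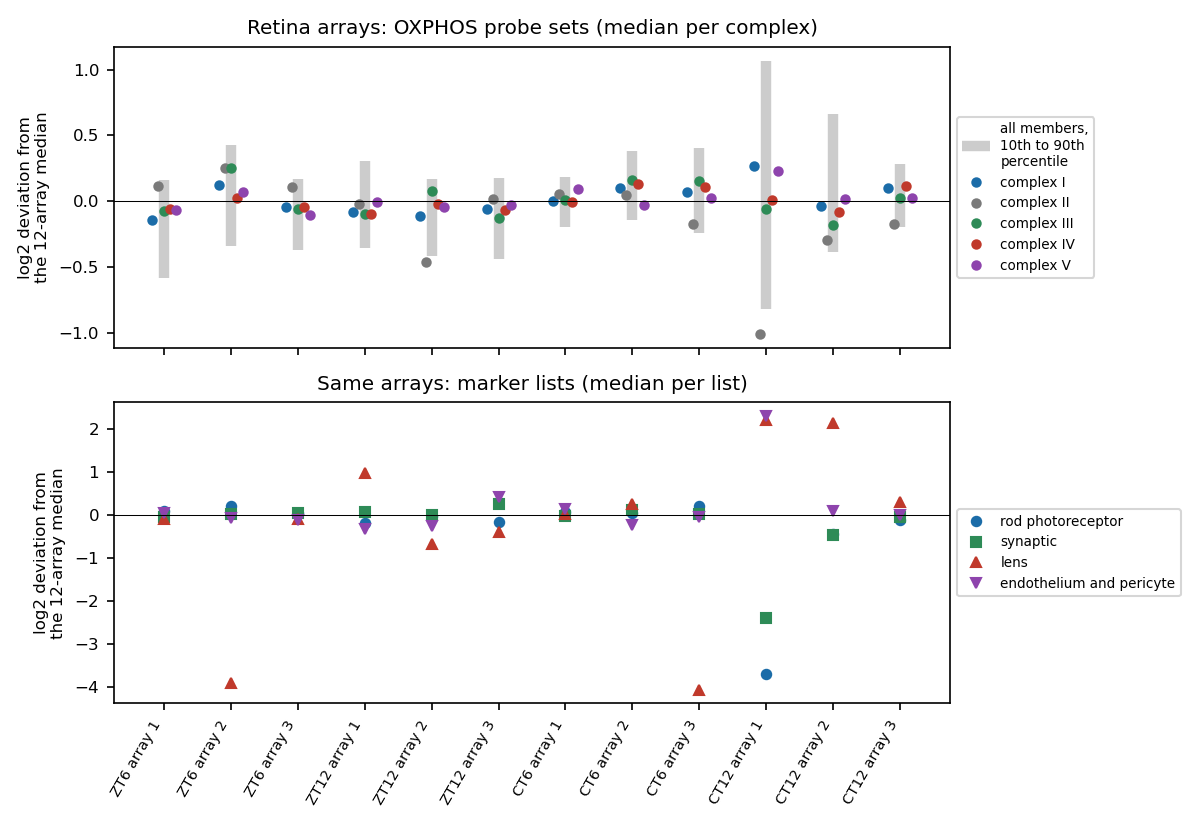
Top, median deviation (log2) of the members of each complex from their median over the retina arrays, for each of the 12 retina arrays, with bars from the 10th to the 90th percentile of all members; bottom, the same for the rod, synaptic, lens and endothelial marker lists. On the first CT12 array the rod list lies at -3.69 and the members at 0.18.

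Members on the low side of that array included Atp5f1a and Atp5f1b of the F1 head. Atp5f1b read 14.68 there against 15.31 to 16.03 on the others, Atp5f1a 12.78 against 13.38 to 13.90, and Sdha 12.60 against 13.15 to 13.86. Ndufa4 read 13.58 against 14.18 to 15.16, and all 4 probe sets of Cox8a were below the others. The high side included several accessory subunits of complex I. Ndufb5 read 13.59 against 12.11 to 12.63, Ndufc1 14.55 against 13.37 to 14.08 and Ndufa5 13.94 against 12.30 to 13.04. Ndufs4 read 13.00 against 11.52 to 12.29, Cox5b 14.38 against 13.59 to 14.04 and Atp5f1e 15.08 against 13.90 to 14.49. Atp5f1a and Atp5f1b were thus at one end of this array's range and Atp5f1e at the other, within the same F1 head.

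Ndufa4l2, the hypoxia-responsive relative of Ndufa4, was the only member that passed in the retina, on 1 of its 5 probe sets. AA686870_f_at read 9.09, 8.65 and 8.40 at ZT6, 8.79, 8.07 and 8.30 at ZT12, 8.70, 9.44 and 8.45 at CT6 and 11.13, 10.87 and 9.63 at CT12. All CT12 arrays lay above the 9 others, and CT12 minus ZT12 was 2.16 ± 0.40 (4.45-fold, adjusted p = 0.0451 from limma). The other tested probe sets did not pass, at 0.71 (adjusted p = 0.127) and 0.96 (adjusted p = 0.150). All 5 probe sets were highest on the first and next highest on the second CT12 array. The third CT12 array lay above the 9 others on AA686870_f_at only. It read 10.75 on AA684929_f_at, 10.40 on AA684960_f_at and 8.42 on AA686870_i_at, inside the range of those 9. On AA685376_f_at it read 7.51, the lowest of the 12 arrays. Without the first CT12 array the difference was 1.87 (adjusted p = 0.0651). The call was lost on leaving out any retina array other than the third CT12 array, with adjusted p-values of 0.0651 to 0.220, and in 15 of 22 alternatives in all (range 4.23e-05 to 0.337). Most lens markers peaked on the same arrays: 7 of the 13 lens genes were highest on the first and 4 on the second CT12 array. Their summed intensity was 1057263 to 1956445 on CT12 arrays, 658001 to 1380712 at ZT12, 53620 to 1032709 at CT6 and 60671 to 815154 at ZT6, with none at 0. On AA686870_f_at the first ZT12 array (lens sum 1380712) read 8.79 and the third CT12 array (1057263) read 9.63. The third CT6 array (53620) and the second ZT6 array (60671) read 8.45 and 8.65. The summed intensity of endothelial and pericyte markers was 21453 on the first CT12 array, 6840 on the second and 7063 on the third. On the 9 other retina arrays it was 6040 to 13112. The part of lens or vessel tissue in the Ndufa4l2 difference was not tested.

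The muscle forms of complex IV stood out on the same arrays. Cox6a2, by X12554cds_s_at, read 12.29 on the second CT12 array and 10.34 to 10.90 on the 11 others. Cox8b, by U40836mRNA_s_at, read 10.61 on the second and 10.02 on the first CT12 array and 8.14 to 9.43 on the others. Its other probe set, under the filter, read 10.41 on the first and 9.66 on the second and at most 7.24 elsewhere. Neither gene passed in a comparison, with CT12 minus ZT12 at 0.71 ± 0.36 for Cox6a2 and 0.18 ± 0.48 for Cox8b. Markers of skeletal and heart muscle were high on the second CT12 array too. Acta1, the actin of skeletal muscle, read 13.88 there and 9.52 to 10.25 elsewhere, and Myh4, a fast myosin, read 13.01 and 7.50 to 8.47. Ckm, the muscle creatine kinase, read 13.38 there, 11.89 on the first CT12 array and at most 10.03 elsewhere. Of 25 muscle genes 11 were highest on the second and 7 on the first CT12 array, and their sum was 15330 to 66577 on CT12 arrays against 11909 to 15010 on the other retina arrays. The part of muscle tissue in these values was not tested.

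**Figure D5:**
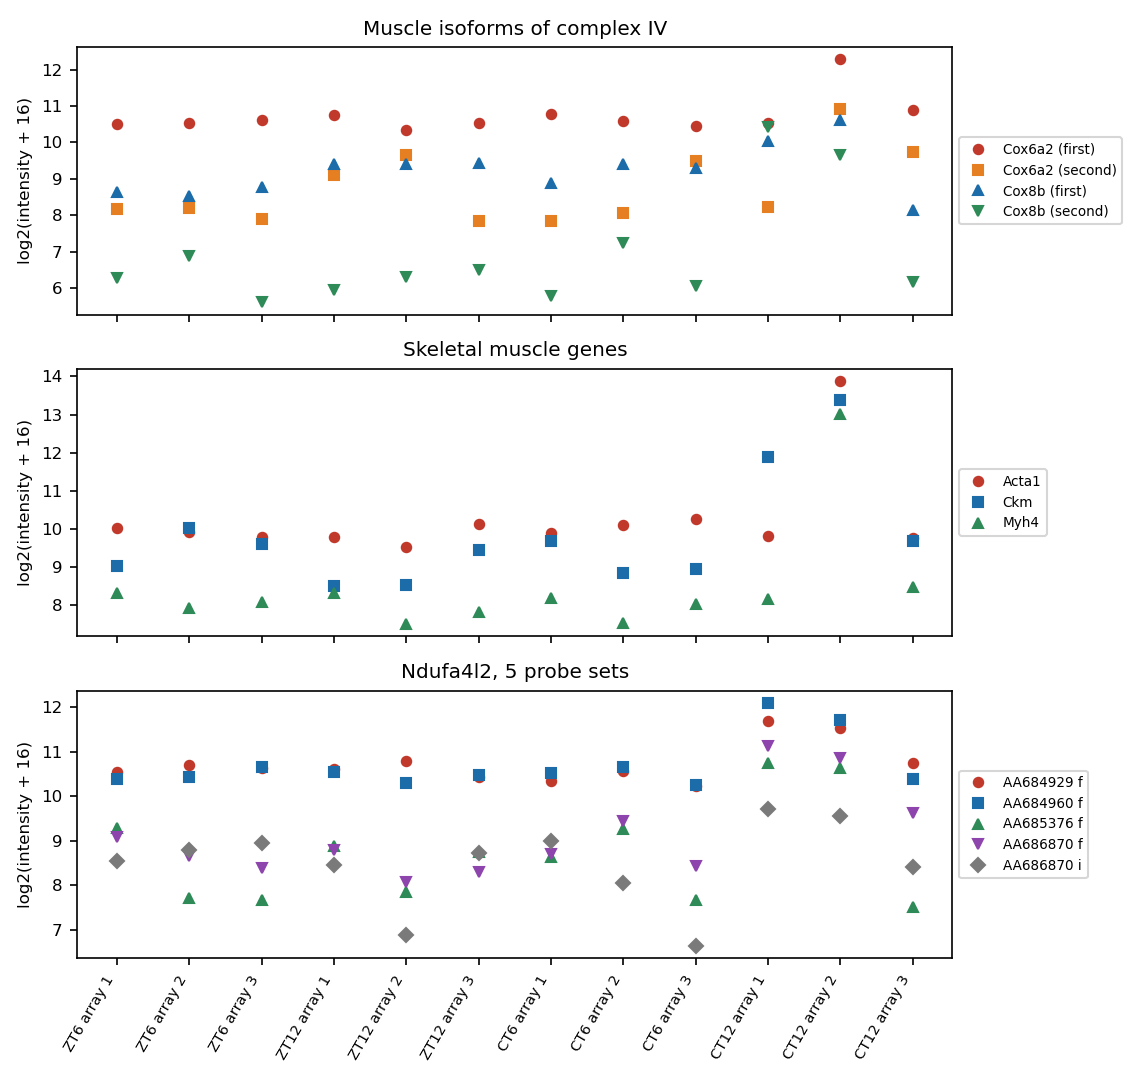
Levels (log2 intensity) on each of the 12 retina arrays of the muscle forms Cox6a2 and Cox8b, of the muscle markers Acta1, Ckm and Myh4, and of the 5 probe sets of Ndufa4l2. The second CT12 array holds the highest Cox6a2 level (12.29) and the highest level of all 3 markers, and the first CT12 array holds the highest level of every Ndufa4l2 probe set.

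Within the retina groups, the median SD of the members over the 3 arrays of a group was 0.165 at ZT6, 0.130 at ZT12, 0.137 at CT6 and 0.312 at CT12, against 0.182, 0.170, 0.201 and 0.413 for all probe sets tested. The pooled SD of the median member, 0.245, stood at percentile 35.0 of all probe sets, and without the first CT12 array it was 0.181, at percentile 32.1. By complex this percentile was 44.8 for I, 19.4 for III, 33.5 for IV and 25.6 for V.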

How the data were processed

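The deposited values are linear intensities, 1 per probe set and array, of 8799 probe sets on 16 arrays. The array software, background correction and scaling behind them were not given in the sources used here. The deposited intensities were quantile normalized (the 12 retina arrays for retina comparisons, all 16 for tissue) and taken to log2(intensity + 16). Without the 59 control probe sets, those with a mean at or above the 40th percentile (5244) were fitted with limma 3.58.1 (R 4.3.3). The retina fit had 4 group means (8 residual degrees of freedom), and the tissue fit had condition and tissue (11). P-values were adjusted over all probe sets fitted (Benjamini-Hochberg). Tables and figures were made with Python 3.11.15, pandas 2.3.3, scipy 1.17.1 and matplotlib 3.10.9. Tested on simulated data, the ZT12 minus ZT6 step recovered 50 of 100 changes of 2-fold and 82 of 100 of 4-fold, with 7 false calls. The tissue step recovered 63 and 91 of 100, with 15.

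Gene symbols come from the platform annotation, and promoters from RefSeq (GRCr8). Each gene is named by its brightest probe set: up to 4 per complex and direction with the largest tissue difference that passed without overlap, every member that passed in the retina, otherwise the 2 higher and 2 lower with the smallest p, and the isoforms. Related lists give up to 3 genes per direction by p. The members and lists were chosen with earlier results of these data known. Alternatives were another offset, filter, scaling, array weights, a replicate block and leaving out each array. Replicate numbers did not pair the retina arrays by the check given in the closing section.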

Additional observations from a re-analysis of the deposited data

How the results depend on the processing

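Intensities without probe positions limit what a tissue difference means: probe sets of a gene disagree, and RNA quality goes with tissue. With 3 arrays a group, many changes of 2-fold would be missed. The tissue count was 68 to 74 members when any array was left out, against 72, and 42 of 52 genes by the brightest probe set (25 higher, 17 lower). The tissue median was -0.28 on the values as deposited, 0.23 with a common median scaling, 0.0022 on ZT arrays alone, 0.087 within ZT6, -0.40 within CT12, and -0.14 to -0.02 with an array left out. The median of all probe sets is not given here for these alternatives. The common median scaling turned Ndufc1 to 0.12, Cox4i2 to 0.048 and Cox6a1 to 0.58. The cause was not tested.

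Array weights raised the retina counts most: to 6 in ZT12 minus ZT6, 44 in CT12 minus CT6, 49 in CT12 minus ZT12, 24 for the hour average, 24 for CT minus ZT and 20 for the difference of time effects. The medians then were -0.12 for CT12 minus CT6, 0.059 for CT12 minus ZT12 and -0.072 for the difference of time effects, which was 0.0097 with a common median scaling. A fit on the 6 arrays alone gave 2 in ZT12 minus ZT6. The share of all probe sets that passed is not given here for these alternatives. The counts therefore cannot be read as particular to the members. The Ndufa4l2 call in CT12 minus ZT12 was lost, leaving 0 members, with no filter, with a filter at the 60th percentile, without the retina arrays numbered 3, with a replicate block and on the 6 arrays alone.

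With an array left out, the counts were 0 to 2 for ZT12 minus ZT6, 0 to 21 for CT12 minus CT6, 0 for CT6 minus ZT6, 0 to 17 for CT12 minus ZT12, 0 to 5 for the hour average, 0 for CT minus ZT and 0 to 3 for the difference of time effects. The highest counts came without the third CT12 array, except the 2 of ZT12 minus ZT6, which came without the first. For these counts too the share of all probe sets is not given. The medians were -0.09 to 0.02, -0.06 to 0.04, 0.04 to 0.16, 0.12 to 0.23, -0.05 to 0.01, 0.09 to 0.19 and 0.022 to 0.15 in that order. The same-numbered retina arrays correlated between -0.41 and 0.41 (median 0.01), and 5 of 12 arrays correlated best with their own number. The replicate block changed no other count of calls. Pineal arrays carry no number.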

Other observations

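The pineal gland has 1 array for each condition, so its comparisons by hour have no replicate check and no test. At ZT12 against ZT6, 30 of 100 members had a positive difference (47.9% of all probe sets), with a median of -0.14. At CT12 against CT6, 26 did (48.7%), with a median of -0.19. These pairs share no array, and 54% of the members were lower at hour 12 in both, against 30.3% of all probe sets, while 10 were higher in both, against 27.3%. The members and the background are not at like levels here either, since 89 of 100 members passed the level filter against 5244 of 8740 probe sets. By complex, those lower in both were 30 of 49 in I, 5 of 6 in III, 14 of 27 in IV and 5 of 17 in V. Other values differed between these arrays in the same order of hours. The summed intensity of 5 blood markers was 262245 at ZT6 and 83795 at ZT12, and 156374 at CT6 and 45821 at CT12. The GAPDH 3'/5' ratio was 17.7 and 15.6 at ZT, and 17.9 and 13.7 at CT. The actin ratio did not keep this order, at 8.49 and 5.14 at ZT but 6.88 and 8.72 at CT. Their part in the members' differences was not tested. CT against ZT gave 54 positive at hour 6 (49.0%) and 49 at hour 12 (49.5%). The ZT12 array is the one whose labels give both hours.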
